A study of Mus musculus with 3 samples.

Results

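Hedgehog signalling was followed in healing mouse skin through 9 genes, chosen by name: the ligand gene Shh, the receptor gene Ptch1, the ligand-binding inhibitor gene Hhip, the co-receptor genes Boc and Gas1, the transducer gene Smo, and the transcription factor genes Gli1, Gli2 and Gli3. They were found by symbol in the platform's annotation among 19938 named genes, and each of the 9 was measured by 1 probe set, a group of array probes summarised to 1 value. The tissue came from C57Bl/6 mice, an inbred strain, aged 6 weeks, with an excised back wound of 1.5 cm2 that took away epidermis and dermis. It was collected at wound day 10, day 12 or day 14, and the labels describe dissection away from unwounded skin and from follicles at the margin. All groups were wounded, no treatment or genotype separated them, and each day is 1 pool of 3 mice on 1 array.

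Hedgehog ligands are secreted proteins that bind Ptch1, a membrane receptor which in their absence holds Smo inactive. When Smo is released, it moves into the primary cilium, and the Gli2 and Gli3 proteins are turned into activators instead of being cut to repressors. Gli1, Ptch1 and Hhip are themselves transcribed in response, so their transcripts are commonly read as a measure of the pathway's output. In developing skin, Shh is made by the epithelium of the hair placode and germ and acts on that epithelium and on the dermal cells beneath it, and it is needed for the follicle to grow downwards.

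With 1 array for each day, replicate error could not be estimated, so neither a test nor a p-value is reported. The number of arrays limits the precision, and each difference compares 2 pools. A scale for reading the differences came from 777 genes measured by exactly 2 probe sets. The disagreement between such probe sets, scaled to the error of 1 probe set, had a 95th percentile of 0.26 log2 units for day 12 against day 10, 0.20 for day 14 against day 12 and 0.34 for day 14 against day 10. This limit, called the probe-set spread here, covers disagreement within the arrays and leaves out the spread between animals. A value was exactly equal on 2 days for many genes, as differences of 0 made up 40.0%, 36.6% and 29.5% of named genes for the same pairs of days, so an equal value is not a precise measurement of equality. The presence of epidermal and dermal RNA was checked on defining markers: the basal keratin gene Krt14 stood at 13.30, 13.32 and 13.31 log2 units on days 10, 12 and 14, and the fibrillar collagen gene Col1a1 at 13.48, 13.48 and 13.49. In such a mixed tissue, fewer cells of a type and less RNA per cell cannot be told apart. Krt14 and Col1a1 do not check the dissection away from unwounded skin, which was not on any array.

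Gli1 was the hedgehog gene with the widest range over the days, and it was higher on each later day, whereas Smo, Gas1, Gli2 and Gli3 were each lower on each later day. None of the 9 genes reached 1.5-fold in any pair of days, in either direction. Among all named genes, 3.29% did so for day 12 against day 10, 0.983% for day 14 against day 12 and 6.09% for day 14 against day 10. Among the 9969 genes whose highest value over the days reached the median of that quantity, 8.36, a level filter that 6 of the 9 members passed and Shh, Gli1 and Hhip did not, the shares were 5.81%, 1.51% and 10.5%. Differences beyond the probe-set spread were found for Gli1 on day 12 and day 14 against day 10, and for Shh on day 14 against day 12. In each pair of days this was 1 of 9 genes higher and 0 lower, beside 6.69%, 4.73% and 6.39% of all named genes higher and 7.16%, 6.14% and 8.85% lower. A count of 1 in 9 is near that background and is no result about the group as a whole.

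Shh encodes the hedgehog ligand of skin appendages. It stood at 7.10 on day 10, 7.10 on day 12 and 7.34 log2 units on day 14. The first 2 values were identical, and day 14 was 1.18-fold higher than day 12, a log2 difference of 0.24. This is the only member difference beyond the probe-set spread for day 14 against day 12, at 1.19 times that limit, and it is 0.72 times the limit set for day 14 against day 10. With the limit taken from the 323 genes with 2 probe sets below the level filter, where Shh lies, it was 0.23, which Shh only just passed. To judge whether a transcript was detected at all, levels were set against 1194 olfactory and vomeronasal receptor genes, which skin is not expected to express. Shh lay above their 95th percentile of 6.39, 6.36 and 6.43 on the 3 days and below their 99th percentile of 7.25, 7.34 and 7.47. Its presence above background therefore depends on which percentile is used.

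Ptch1 encodes the receptor and is also a target of the pathway. Its levels were 9.27, 9.40 and 9.35 log2 units on days 10, 12 and 14. Day 12 was highest, by 0.13 over day 10, and day 14 was 0.07 above day 10, both within the probe-set spread. Hhip encodes a membrane protein that binds hedgehog ligands and withholds them, and its gene is induced by the signal. It was at 5.79, 5.69 and 5.69, below the 95th percentile of the receptor genes on every day, so no level above background was found, and its difference of −0.10 on day 14 against day 10 is not read as a direction. Of the 3 members commonly used as readouts of signalling, Gli1 was thus higher beyond the probe-set spread, Ptch1 was not, and Hhip was not measured above background.

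Boc and Gas1 encode cell surface proteins that present ligand to Ptch1, and in mouse embryos they act with Cdon as obligatory co-receptors. Boc was nearly level, at 9.98, 10.01 and 10.01 log2 units on days 10, 12 and 14, the last pair being identical. Gas1, which was first found as a gene of growth-arrested fibroblasts, was at 11.38, 11.17 and 11.08. It was lower by 0.21 on day 12 against day 10 and by 0.30 on day 14 against day 10, the largest decrease among the 9 genes and 1.23-fold in size. That difference was 0.88 times the probe-set spread, and it lay just beyond the narrower limit of 0.29 that came from the 454 genes with 2 probe sets at or above the level filter. The difference of Gas1 was 0.33 below that of Boc for day 14 against day 10, and this contrast between them was not tested.

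Smo encodes the membrane protein that carries the signal inwards once Ptch1 is bound. It stood at 11.40 on day 10, 11.17 on day 12 and 11.12 on day 14. Most of its decrease lay in the first step, at −0.23, followed by −0.05, and day 14 was 1.22-fold lower than day 10. At 0.87 times the probe-set spread for day 12 against day 10, it came close to the limit without reaching it.

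The 3 Gli genes encode zinc finger transcription factors with different parts in the response. Gli1, an activator that is itself induced, was at 7.37, 7.68 and 7.86 log2 units on days 10, 12 and 14. It was 1.24-fold higher on day 12 and 1.40-fold higher on day 14 than on day 10, with log2 differences of 0.31 and 0.49. For genes below the level filter, where Gli1 lies, the limits were 0.30 and 0.42, so that the first of these differences only just passed. The 2 differences are 1.19 and 1.45 times the probe-set spread over all genes, and they lie at percentiles 94.5 and 96.0 of the differences of all named genes. Gli1 was above the 99th percentile of the receptor genes on each day.

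Gli2, the main activator at the start of signalling, was at 8.53, 8.33 and 8.32 log2 units, and Gli3, which acts mostly as a repressor when no ligand is present, was at 10.35, 10.23 and 10.08. Both were lower on day 14 than on day 10, by 0.22 for Gli2 and 0.27 for Gli3, and both differences were inside the probe-set spread. For Gli2 nearly all of the difference lay between day 10 and day 12, whereas Gli3 was lower by 0.12 and then by 0.15. For day 14 against day 10, the difference of Gli1 exceeded that of Gli2 by 0.71, that of Gli3 by 0.76 and that of Smo by 0.77. These contrasts between genes were not tested, and only the difference of Gli1 was beyond the probe-set spread.

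**Figure D1:**
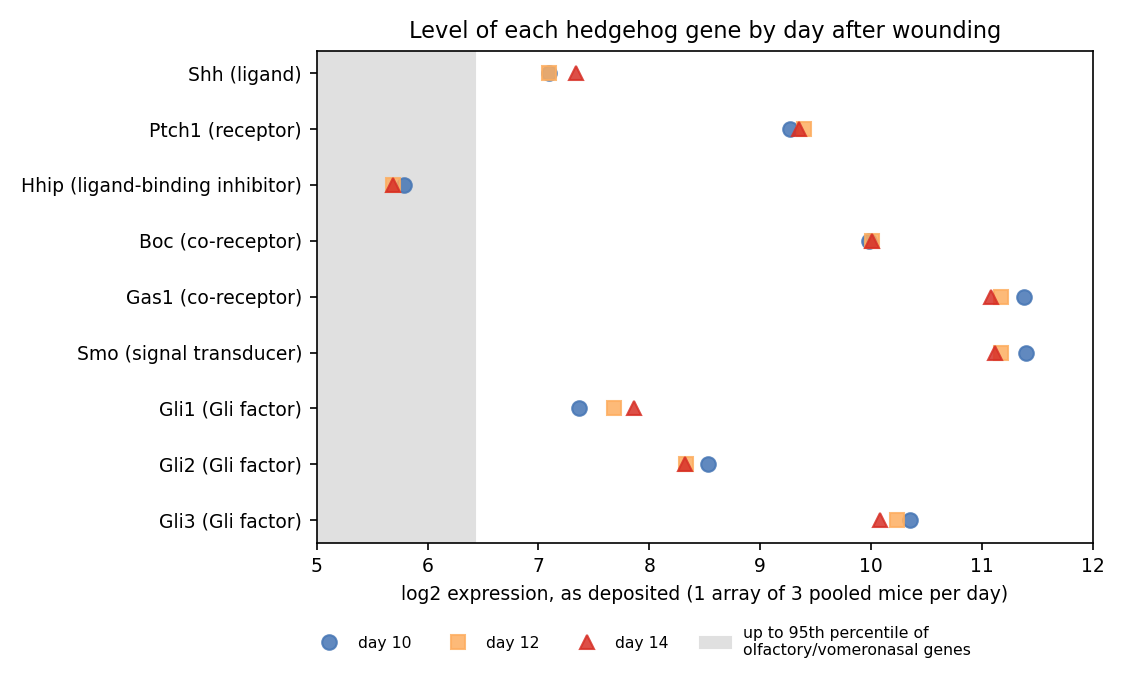
Deposited log2 expression of each hedgehog gene on days 10, 12 and 14, 1 point for each array of 3 pooled mice. The grey area ends at 6.43, the highest of the 3 daily 95th percentiles of olfactory and vomeronasal receptor genes; Hhip lies inside it, and points should be compared within a row, because probe sets differ in brightness.

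**Figure D2:**
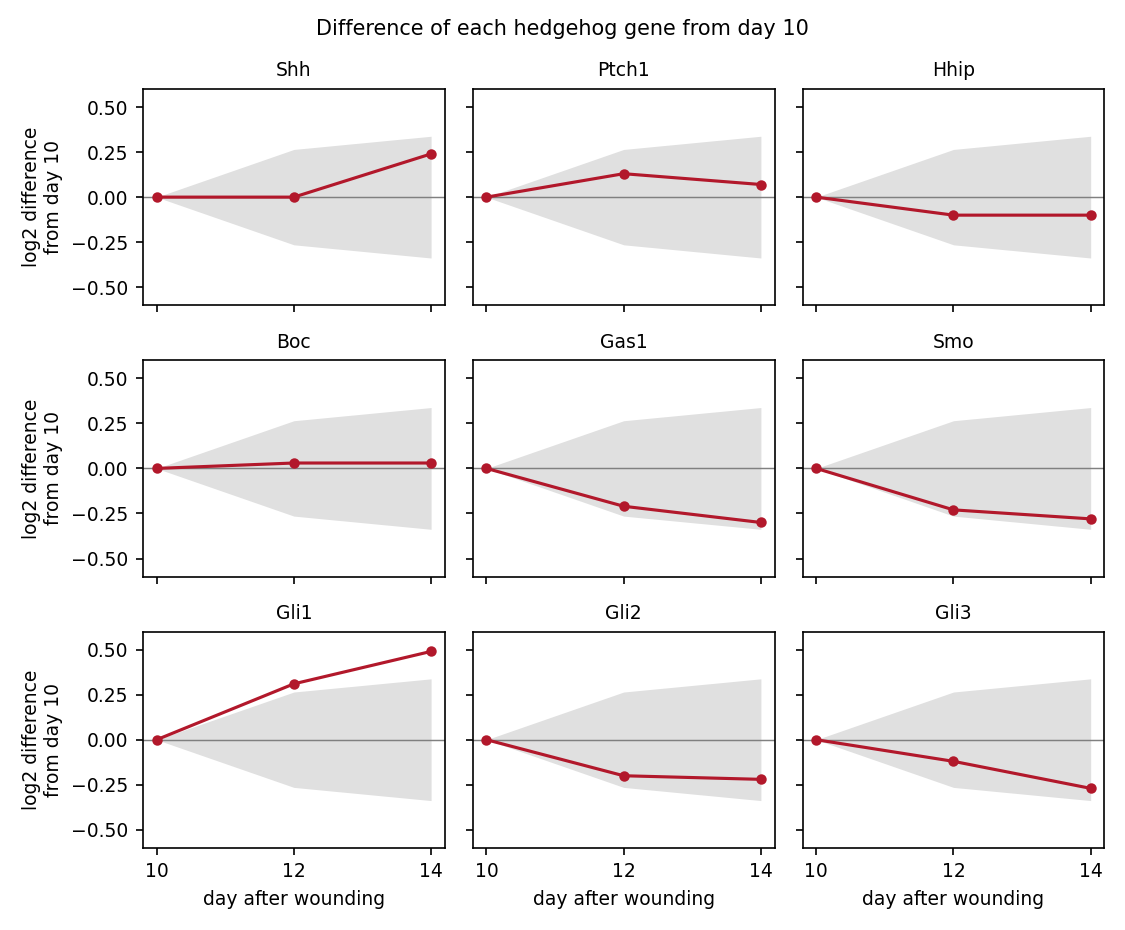
Log2 difference of each hedgehog gene from its own day 10 value, against the day after wounding. Grey bands show the probe-set spread of 0.26 for day 12 and 0.34 for day 14; Gli1 leaves the band on both days, at 0.31 and 0.49, and the other 8 genes stay inside it.

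Taken by direction alone, 3 of the 9 genes were higher, 5 lower and 1 equal on day 12 against day 10, with a median difference of −0.10. For day 14 against day 12, 2 were higher, 5 lower and 2 equal, with a median of −0.01. For day 14 against day 10, 4 were higher and 5 lower, again with a median of −0.10 and an interquartile range of −0.27 to 0.07. The median over all named genes was 0.00 in each pair. The shares of all named genes higher by any size were 25.5%, 32.7% and 34.9% in the same order, and the shares lower were 34.5%, 30.8% and 35.6%. Among the 9969 genes past the level filter, 45.7%, 50.3% and 53.8% were lower. The pairs of days share arrays, so these counts are not independent of one another. Gli1 was the single member higher at both steps, which held for 12.6% of named genes, and the 4 members lower at both steps compare with 18.1% of named genes. For Gli2 the second of these steps was −0.01. Genes with equal values on some days, 54.6% of named genes and 3 of the 9 members, cannot count in either share. Smo, Gas1, Gli2 and Gli3 all passed the level filter. The share lower at both steps was not taken among the genes past it, so 18.1% is no matched background for them.

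**Figure D3:**
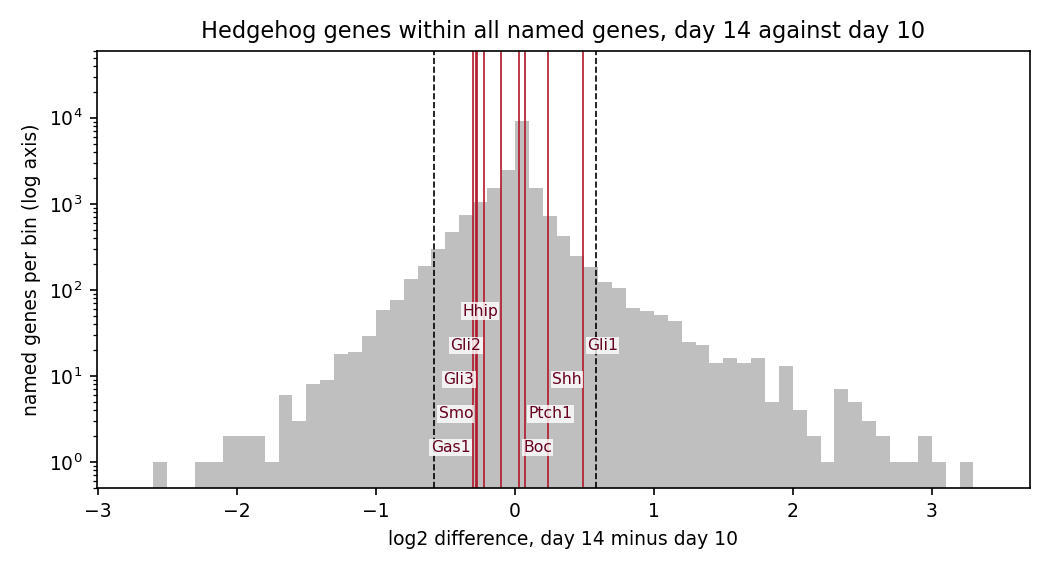
Number of named genes, on a log axis, by their log2 difference on day 14 against day 10, in bins of 0.1. Red lines mark the 9 hedgehog genes, which run from −0.30 for Gas1 to 0.49 for Gli1, and dashed lines mark 1.5-fold in either direction; no hedgehog gene lies outside them.

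The upstream sequences of 3 of the members that were lower at both steps are given, because these genes shared a direction at both steps, within the probe-set spread. Of the 9 genes, 6 were matched by symbol in a table of promoters from RefSeq on the GRCm38.p6 assembly: Ptch1, Smo, Gli2, Gli3, Gas1 and Hhip. The 250 bases before the start of Smo, Gas1 and Gli3 lay outside the body of their own gene and are printed 5′ to 3′ on the strand of the gene, with GC boxes (GGGCGG) and CCAAT boxes (CCAAT) in capitals wherever they occur on either strand. The Smo window is chr6:29735247-29735496 on the plus strand, the Gas1 window chr13:60177536-60177785 on the minus strand and the Gli3 window chr13:15463473-15463722 on the plus strand.
Smo: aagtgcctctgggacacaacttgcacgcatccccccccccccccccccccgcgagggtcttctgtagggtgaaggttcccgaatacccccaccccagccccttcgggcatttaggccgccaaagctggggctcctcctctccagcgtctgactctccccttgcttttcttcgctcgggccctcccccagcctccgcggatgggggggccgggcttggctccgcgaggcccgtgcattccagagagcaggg
Gas1: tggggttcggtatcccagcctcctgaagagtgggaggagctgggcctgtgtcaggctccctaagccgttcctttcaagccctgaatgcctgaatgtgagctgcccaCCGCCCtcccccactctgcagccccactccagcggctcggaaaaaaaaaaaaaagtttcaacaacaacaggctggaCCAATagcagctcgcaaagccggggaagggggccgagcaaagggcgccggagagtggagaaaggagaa
Gli3: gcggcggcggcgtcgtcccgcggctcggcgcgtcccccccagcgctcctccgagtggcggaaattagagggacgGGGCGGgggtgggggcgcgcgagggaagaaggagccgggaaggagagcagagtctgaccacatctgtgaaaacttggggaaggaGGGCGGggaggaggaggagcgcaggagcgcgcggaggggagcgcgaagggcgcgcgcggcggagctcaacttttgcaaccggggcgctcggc

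The Smo window held neither box, that of Gas1 held 1 GC box and 1 CCAAT box, and that of Gli3 held 2 GC boxes and no CCAAT box. Of all 32851 windows of this length, 32.7% held a GC box and 33.8% a CCAAT box. The GC content was 68.4% for Smo, 58.8% for Gas1 and 72.8% for Gli3, against a median of 52.4% over all windows. The consensus Gli motif GACCACCCA, searched on both strands as GACCACCCA and TGGGTGGTC, can share its end with a CCAAT box, and it was in 0 of the 6 members' windows and in 0.225% of all windows. This describes the letters of these short windows only.

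Other genes of the pathway were taken from 5 lists, in which 69 further genes were measured. On day 14 against day 10, 15 of them were higher, 37 lower and 17 equal, with a median of −0.01. By any size, 34.9% of all named genes were higher and 35.6% lower. Among the genes past the level filter these shares were 29.6% and 53.8%. Beyond the probe-set spread, 1 was higher and 11 were lower, which is 1 and 11 of 69 beside 6.39% and 8.85% of all named genes. Of the 69 genes, 41 passed the level filter, and among all genes past it 9.56% were higher and 15.1% lower beyond the spread. At 1.5-fold, 1 was higher and 5 lower, beside 3.11% and 2.98% of named genes and 5.27% and 5.19% of those past the level filter.

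Ligand genes and genes for ligand release held 1 large difference. Hhat, the acyltransferase that attaches palmitate to hedgehog ligands, was at 8.87, 8.27 and 8.02 log2 units on days 10, 12 and 14. Day 14 was 1.80-fold lower than day 10, well beyond the probe-set spread, and the larger part lay in the first step. Ihh, the ligand best known from bone and gut and also present in sebaceous glands, was at 7.64, 7.60 and 7.90, so that it shared with Shh a highest value on day 14. The difference of Ihh for day 14 against day 12, 0.31, was beyond the probe-set spread. For day 14 against day 10 it was 0.26, which is 0.77 times the limit. Scube2, which helps lipid-modified ligand leave the cell, differed by 0.26 and Disp1, the transporter that releases it, by −0.16 on day 14 against day 10. Dhh, the ligand of Schwann cells and Sertoli cells, had identical values of 6.99 on all days. Like Shh, it lay between the 95th and 99th percentiles of the olfactory and vomeronasal receptor genes. Over the 8 genes, 2 were higher, 4 lower and 2 equal on day 14 against day 10.

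Further receptor and co-receptor genes differed little. Of 9 measured, 3 were higher, 4 lower and 2 equal on day 14 against day 10, and none was beyond the probe-set spread. The glypican genes Gpc4, Gpc3 and Gpc6, which encode heparan sulphate proteoglycans of the cell surface, differed by −0.22, 0.20 and −0.13, and Hhipl1, a relative of Hhip, by −0.17. Cdon, the partner of Boc and Gas1, was at 6.97 on each day, between the 95th and 99th percentiles of the olfactory and vomeronasal receptor genes.

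Regulators of Smo and Gli proteins gave 4 genes higher, 10 lower and 2 equal of 16 on day 14 against day 10, with a median of −0.02. Tulp3, which brings receptors into the cilium and restrains the pathway, was at 9.86, 9.52 and 9.48 log2 units and was the 1 gene beyond the probe-set spread, at −0.38. Arrb2, a beta-arrestin gene, differed by −0.33, and Spop, whose product marks Gli2 and Gli3 for degradation, by 0.25. Efcab7, which helps hold the Evc complex at the base of the cilium, differed by −0.25 and did not stand above the receptor genes on any day. Sufu, the protein that retains Gli factors, had 9.91 on each day, and Kif7, the kinesin of the cilium tip, was at 8.08, 8.07 and 8.19.

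Genes for transport in the primary cilium, on which mammalian hedgehog signalling depends, were more often lower than higher. Of 16 measured, 1 was higher, 11 lower and 4 equal on day 14 against day 10, with a median of −0.16 (interquartile range −0.27 to 0.00). The share lower by any size was 35.6% over all named genes and 53.8% over the genes past the level filter. Ift122, a subunit of the complex for transport back to the cell body, was at 8.62, 8.25 and 8.05 and differed by −0.57. Ift81, a subunit of the outward complex, and Dync2li1, of the dynein motor, differed by −0.37 each. With Ift122, these were the 3 of 16 genes beyond the probe-set spread, all lower, beside 8.85% of all named genes lower. Among the genes past the level filter that share was 15.1%. Ift57 differed by −0.28. Over the 8 of these genes that passed the level filter, the median was 0.00.

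Genes described as targets of hedgehog signalling in various tissues, other than the 9, were mixed. Of 20 measured, 5 were higher, 8 lower and 7 equal on day 14 against day 10, and the median was 0.00. At 1.5-fold, 1 was higher and 4 lower, beside the 3.11% and 2.98% of named genes given above, and beyond the probe-set spread 1 was higher and 6 lower, beside 6.39% and 8.85% of named genes. Of the 20 genes, 15 passed the level filter, and among all genes past it 9.56% were higher and 15.1% lower beyond the spread. At 1.5-fold the shares among genes past the filter were 5.27% and 5.19%. Jag2, a Notch ligand gene, was the one higher, at 8.62, 8.96 and 9.24 log2 units, 1.54-fold on day 14 against day 10. Snai1, a repressor of epithelial adhesion genes, was at 10.63, 9.66 and 9.60 and thus 2.04-fold lower, nearly all of it between day 10 and day 12. Grem1, a secreted Bmp antagonist gene, was at 11.43, 11.08 and 10.40, also 2.04-fold lower, with the larger part in the second step. Sfrp1, a secreted Wnt antagonist gene, was at 11.32, 10.34 and 10.46 and was 1.81-fold lower. The fourth gene was Sox9, a transcription factor gene of hair follicle epithelium, at −0.60, which was picked out after its value was seen. The cell growth genes Ccnd1 and Mycn held identical values on all days, at 10.93 and 7.34. Many of these genes answer to other signals as well.

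**Figure D4:**
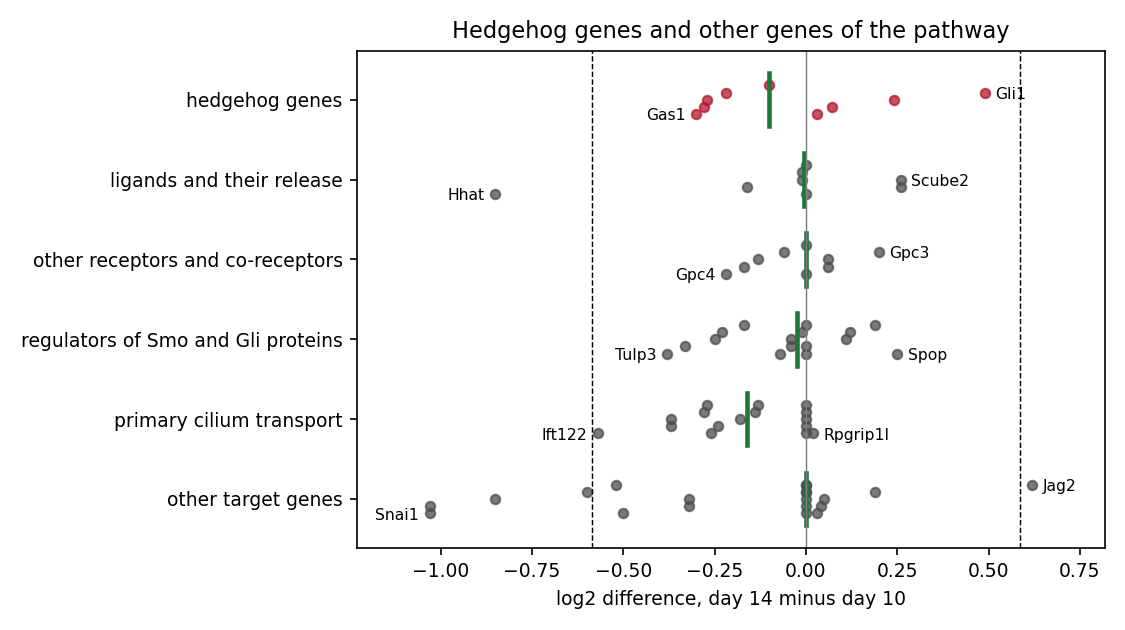
Log2 difference on day 14 against day 10 of each measured gene in the pathway lists, 1 point for each gene, with the list's median as a green bar and 1.5-fold as dashed lines. The hedgehog genes (red) lie between −0.30 and 0.49, Hhat stands apart among the ligand genes at −0.85, and the cilium genes have a median of −0.16.

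Several marker lists had medians farther from 0 than that of the hedgehog genes. By any size, 34.9% of all named genes and 29.6% of those past the level filter were higher on day 14 than on day 10. On day 14 against day 10, all 9 Schwann cell and nerve markers were higher, with a median of 0.61, and their mean level was 7.75, 8.23 and 8.39 log2 units on days 10, 12 and 14. Cdh19, Gfra3 and L1cam differed most, by 1.33, 1.16 and 0.72, and S100b did not stand above the receptor genes on any day. Of 11 markers of hair shaft and inner root sheath, 9 were higher and none lower, with a median of 0.57 and mean levels of 6.99, 7.16 and 7.65; Krt71, Krt25 and Krt73 differed by 1.62, 1.29 and 1.11, whereas Krt28 and Dsg4 did not stand above the receptor genes. Of 10 sebaceous gland markers, 9 were higher and 1 lower, the latter beyond the probe-set spread, with a median of 0.96 and mean levels of 7.88, 9.07 and 8.85. These 3 lists were higher on day 14 than on day 10, as Gli1 was. By their medians, so were the hair placode, cornified epidermis, basal epidermis and dermal adipocyte lists given below. The hair shaft list, like Shh and Ihh, had its larger step between day 12 and day 14. For that step, 8 of 10 sebaceous gland markers were lower, with a median of −0.22, whereas Gli1 was higher by 0.18. The part of these lists in the differences of Gli1 and Shh was not tested.

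Counted by direction alone, the lists nearest to hedgehog signalling in the growing follicle were mixed. Of 11 hair placode and germ markers, 8 were higher, 2 lower and 1 equal on day 14 against day 10, with a median of 0.15 and mean levels of 8.47, 8.62 and 8.68. Sostdc1, an antagonist of Bmp and Wnt signals, differed by 1.44, Cdh3 by −0.47 and Lhx2 by 0.42. Beyond the probe-set spread, 2 of the 11 were higher and 1 lower, beside 6.39% and 8.85% of all named genes. Of 16 dermal condensate and papilla markers, 8 were higher and 8 lower, with a median of −0.10 and mean levels of 8.58, 8.43 and 8.30. Beyond the spread, however, 0 of the 16 were higher and 7 lower, beside 6.39% and 8.85% of all named genes. Of the 16, 9 passed the level filter, and among all genes past it the shares were 9.56% and 15.1%. Fgf7, Sox18 and Tbx18 differed by −1.28, −1.02 and −0.92, and Corin and Wif1 did not stand above the receptor genes on any day. Sox18 is also in the endothelial list below, where it had the lowest value, so it is counted in both lists. Lef1, Wnt10b and Edar, placode genes looked up after their values were seen, differed by 0.02, 0.09 and 0.00. Lef1 and Edar were above the 99th percentile of the receptor genes on no day and Wnt10b on 1 day, so their detection is uncertain.

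The myofibroblast, endothelial and cell cycle lists were lower on day 14, as Smo, Gas1, Gli2 and Gli3 were, and the fibroblast list was mixed. The dermal condensate and papilla list given above, mixed by direction, also had 7 of 16 markers lower beyond the probe-set spread and 0 higher. Of 10 fibroblast markers, 6 were lower, 3 higher and 1 equal on day 14 against day 10, with a median of −0.10 and mean levels of 12.49, 12.37 and 12.31; Twist2, Fbln1 and Thy1 differed by −0.55, −0.51 and −0.42. All 8 myofibroblast and smooth muscle markers were lower, with a median of −1.01 and mean levels of 11.11, 10.27 and 9.91. All 9 endothelial markers were lower, with a median of −0.59, and all 9 cell cycle markers, with a median of −0.60. The 9 cornified epidermis markers were all higher, with a median of 0.96, and the 7 basal epidermis markers were all higher, with a median of 0.05. Of 6 dermal adipocyte markers 5 were higher, with a median of 0.23, and the 8 macrophage and monocyte markers had a median of −0.01. Adipoq of the adipocyte list and Cd163 of the macrophage list did not stand above the receptor genes on any day. The part of these lists in the lower values of the 4 genes was not tested.

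**Figure D5:**
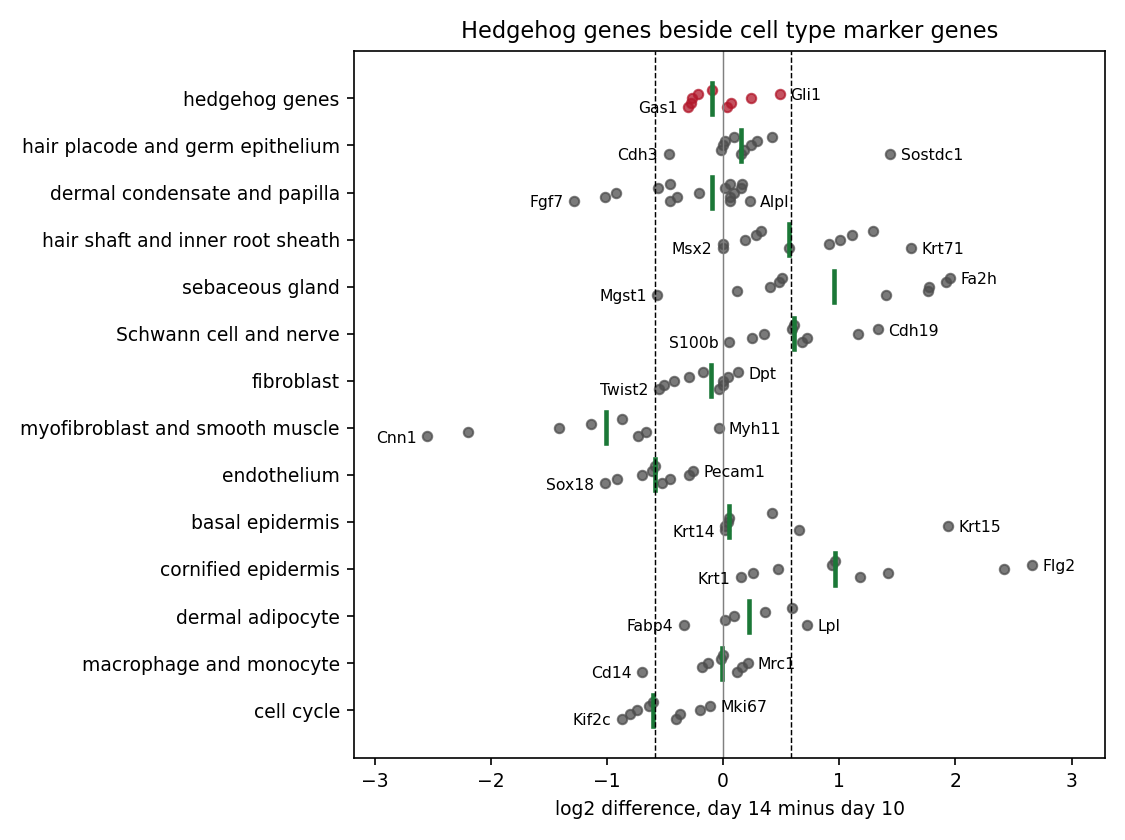
Log2 difference on day 14 against day 10 of the hedgehog genes (red) and of 13 lists of marker genes, for cell types and the cell cycle (grey), with each list's median as a green bar and 1.5-fold as dashed lines. The medians run from −1.01 for myofibroblast and smooth muscle to 0.96 for the sebaceous gland and cornified epidermis lists, and that of the hedgehog genes is −0.10.

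The profile of Gli1, the member with the widest range, was compared with those of the 9969 genes past the level filter by the root mean square distance of the differences of day 12 and day 14 from day 10. The nearest were Sh3bgrl2, Itpr2, Traf6, Samd8 and Pard6b, at distances of 0.0041 to 0.014 log2 units. They had differences of 0.47 to 0.51 on day 14 against day 10, beside 0.49 for Gli1. Within a distance of 0.1 lay 267 genes, 2.68% of those compared.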

How the data were processed

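RNA from the wounds was hybridised to 3 one-colour arrays, 1 for each of days 10, 12 and 14, grouped by the time in the labels. Each array received a pool from 3 mice, of which 250 ng of total RNA was amplified and labelled with biotin, per the labels' protocols. The authors deposited 1 log2 value per probe set and array. The submitters' processing notes list RMA and Partek 6.6 and do not state what each did; the log2 scale was inferred from the range of 4.37 to 14.09. Genome build and detection calls are not given in the sources used here.

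Of 35556 probe sets, 21789 had 1 symbol in the platform annotation, 1621 had several and 12146 were unlisted. A match by Entrez identifier to the GRCm38.p6 gene table covered 21698 and changed 0 symbols. Probe sets of a gene were averaged, and values were not rescaled (array medians 7.53, 7.55 and 7.53). Differences are the later day minus the earlier day. No test was possible with 1 array per day. No level filter was applied to the 9 genes; the level filter used for comparison required a highest value of at least 8.36. The members and gene lists were chosen with earlier results of these data known. All 9 members were named, and of each other list the 4 (pathway) or up to 3 (markers) genes with the largest difference between day 14 and day 10, and Ihh, Dhh, Cdon, Sufu, Kif7, Ccnd1 and Mycn whatever their values; Krt14 and Col1a1 were added as a check of the tissue. Alternatives were 3 scalings (median centring, quantile, cyclic loess in limma 3.58.1), the brightest probe set, 2 level filters and other size limits. The counting steps were tested on simulated data. Calculations used Python 3.11.15 and R 4.3.3.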

Additional observations from a re-analysis of the deposited data

How the results depend on the processing

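Under cyclic loess, quantile normalization and median centring, none of the 81 single-gene differences of the members moved by more than the standard deviation between probe sets of a gene; the brightest probe set and the level filters cannot alter them, since each member has 1 probe set. No member's difference beyond the probe-set spread turned its sign under these scalings. Under the level filter at 8.36, which removes Shh, Gli1 and Hhip by construction, 0 members were higher beyond the probe-set spread in each pair of days, against 1 without it. With that filter the median of the 15 other target genes kept was −0.22 for day 12 against day 10 and −0.32 for day 14 against day 10. For day 14 against day 10, the median of the 3 ligand genes kept was −0.16, which is the value of Disp1. That of the 8 cilium genes kept was 0.00. With the mean in the top 25% of named genes, which keeps 4 members, again 0 members were higher beyond the probe-set spread. The median of the members was then −0.27 for day 14 against day 10. The cilium median was −0.18 for day 12 against day 10, and it rested on Ift20 and Ift52 alone. The medians of other targets were −0.32 and −0.52 for day 12 and day 14 against day 10. These filters change which genes are counted and not their values. At 1.2-fold instead of 1.5-fold, 1 member was higher on day 12 against day 10, and 1 was higher and 3 were lower on day 14 against day 10. The share of all named genes at 1.2-fold was not taken, so these counts have no background and are not read as a result. At 2-fold the counts were 0 as at 1.5-fold. With the probe-set spread taken from genes on the same side of the level filter, a choice made after seeing the data, 1 member, Gas1, was lower beyond it on day 14 against day 10. Against the 99th percentile of the receptor genes, 7 members stood above background on at least 1 day, against 8 at the 95th. No paired analysis was possible because each day had 1 array. Signal over background was not given, so detection rests on the receptor genes.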
